A study of Mus musculus with 12 samples.

Results

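The 200 miRNAs described here are the 5p arms of mouse hairpins numbered miR-6896 to miR-7094, a block of late-annotated, mirtron-like miRNAs, out of the 1881 mouse miRNAs on the array. They were picked by name, as every array name that ends in 5p and has a number in that range, whether or not a letter follows the number. Earlier results of these data were known when the block was chosen. Their level was measured in microglial exosomes, small membrane vesicles released by microglia, in the cerebrum (cortex and hippocampus) of male C57BL/6 mice, 12 weeks old when purchased. All mice were anesthetized and fixed in a cast, and the injured mice then had 4 closed-head impacts at intervals of 48 h (repetitive mild traumatic brain injury, rmTBI), which the sham mice did not have. Exosomes were taken from sham mice and from rmTBI mice at 3, 14, and 42 days post-injury (DPI), the acute, sub-acute, and chronic phases, with 3 arrays per group and 12 in all. Age at sampling thus rose with the time point, and the sampling time of the sham mice is not stated. The exosomes were pulled from brain tissue with an antibody to CD11b, a surface protein of microglia that other myeloid cells also carry. The labels do not say whether a sample is 1 mouse or a pool, nor that replicates came from separate animals, so that p-values measure the spread between these arrays, which may be technical.

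Most mammalian miRNAs are cut from long transcripts by Drosha before Dicer makes the mature arms. A mirtron skips the first cut. It is a short intron that the splicing machinery removes, that folds into a hairpin once its lariat is opened, and that Dicer then processes. Its 5p arm starts at or near the 5′ splice site and its 3p arm ends at or near the 3′ splice site, which in most introns is AG. The 5p arms of mammalian mirtrons are often rich in G and the 3p arms rich in C and U. Few miRNAs of this block have an established function, so they are described here by sequence, position, and level.

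The mature sequences below are those of the members with the largest falls at 42 DPI or the highest mean signal, as held by RefSeq for the build GRCm38.p6. They are written 5′ to 3′, and the capitals mark the seed, bases 2 to 8, which sets most of the target choice of a miRNA. miR-6965-5p is added because it is the other tested member with the seed of miR-7047-5p.
miR-7047-5p: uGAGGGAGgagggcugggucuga
miR-6965-5p: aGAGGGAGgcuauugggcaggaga
miR-7036a-5p: aGCGGGGUucgguggggaagaga
miR-7011-5p: aGGAGGAUgggagagggaggugu
miR-6937-5p: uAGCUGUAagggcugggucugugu
miR-6908-5p: uUGCCUGUcagggagagcccca
miR-6912-5p: uACAGGGAgggugcucaggcag
miR-6944-5p: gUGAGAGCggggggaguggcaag
miR-7005-5p: cCUGGGGAugggaggaccagca
miR-6969-5p: cAGCAGAGuagggagcaaaaga
miR-6931-5p: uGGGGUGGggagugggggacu

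Of the 200 members, 176 were matched to a RefSeq sequence, and miR-7040-5p and miR-7042-5p, described below, were not. All 176 lay within the bounds of a protein-coding gene, against 277 of 487 (56.9%) of the other 5p arms on the array. The table used gives no strand and no exons for these genes, so that intron position was not tested. miR-7036a-5p (chr5:137296661-137296683, minus strand) lies within Srrt, whose product helps to hand capped transcripts to RNA processing. miR-7011-5p (chr3:88440924-88440946, minus strand) lies within the semaphorin gene Sema4a, and miR-6944-5p (chr13:55477754-55477776, minus strand) within Dbn1, which encodes the actin-binding protein drebrin of dendritic spines. miR-6937-5p (chr12:28679325-28679348, plus strand) lies within Adi1, an enzyme gene of methionine salvage. miR-6908-5p (chr10:78445131-78445152, minus strand) lies within the pyridoxal kinase gene Pdxk, and miR-6912-5p (chr10:80609265-80609286, plus strand) within Scamp4, which encodes a membrane protein of secretory vesicles. miR-7005-5p (chr2:180179797-180179818, minus strand) lies within the laminin gene Lama5, miR-6969-5p (chr17:28558475-28558496, minus strand) within the colipase gene Clps, and miR-6931-5p (chr11:102999896-102999916, minus strand) within Dcakd. miR-6965-5p (chr17:24240919-24240942, minus strand) lies within the cyclin F gene Ccnf.

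The sequences fitted the mirtron-like label in part. Of the 175 3p arms of the block with a sequence, 136 (77.7%) ended in AG, against 56 of 500 (11.2%) of the other 3p arms. Of the 176 5p arms, 15 (8.52%) started with GU, the start of most introns, against 22 of 487 (4.52%) of the other 5p arms. Many mature 5p arms start inside their annotated hairpin, as miR-6912-5p does at 80609265, with the hairpin from 80609260. The first bases of such an arm are not those of the hairpin, and this count makes no allowance for that. The median G content was 43.7% in the members, 27.3% in the other 5p arms, and 14.3% in the 3p arms of the block, whose median C content was 40.9%. A run of GGGG, searched on the mature strand only, was held by 67 of the 176 members (38.1%), 51 of the 487 other 5p arms (10.5%), 2 of the 175 3p arms of the block (1.14%), and 182 of all 1608 miRNAs with a sequence (11.3%). The 176 members had 155 different seeds, and 18 seeds were held by more than 1 member, 39 members in all. Among the 38 tested members with a sequence, the pair with a shared seed was miR-7047-5p and miR-6965-5p, whose seed the array miRNA miR-3103-5p also holds. Sequence features are a description, and no feature was tested against the levels.

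The array reports the brightness of each spot as an intensity on a linear scale. Detection of a miRNA here means that a share above 0.5 of the spots of 1 or more of its probes stood well above the background of that array. To compare arrays, intensities were expressed relative to the 75th percentile of the 230 miRNAs that every array detected, a floor was set at 0.03 of that percentile (-5.06 on the log2 scale), and limma was run on the resulting log2 values. This is the log2 scaled signal used below. Before scaling, this percentile was lowest in sham (217) and highest at 42 DPI (2936). Its group means differed 7.27-fold between 42 DPI and sham, and 243 to 285 miRNAs were detected on sham arrays against 490 to 579 at 42 DPI. All sham arrays and the 3 DPI replicate 1 shared slide 1 and the remaining 8 arrays were on slide 2, so that slide and group cannot be told apart for 14 and 42 DPI against sham. Of 6 microglial and myeloid markers, miR-21a-5p was detected on all 12 arrays, miR-223-3p on 1 of 3 sham arrays and on all others, and miR-142a-5p on no array. The others, miR-142a-3p, miR-146a-5p, and miR-155-5p, were detected on no sham array. At 3, 14, and 42 DPI miR-142a-3p was detected on 0, 2, and 3 arrays, miR-146a-5p on 1, 2, and 3, and miR-155-5p on 0, 0, and 1. By comparison, 3 of 4 neuronal and 3 of 3 oligodendrocyte markers were detected on all 12. The neuronal marker miR-124-3p was detected on 2 arrays of 3 DPI and 3 of 14 DPI only. Of 3 erythrocyte markers, miR-451a and miR-486a-5p were detected on some injury arrays and on no sham array, and miR-144-3p on none. The part of other cells in the results below was not tested.

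Of the 200 members, 137 were detected on no array, 42 on 1 to 11 arrays, and 21 on all 12. More members were detected on the later arrays, as were more miRNAs of all kinds. The count was 36, 21, and 26 members on the sham arrays (replicates 1, 2, and 3), 34, 38, and 47 at 3 DPI, 51, 43, and 39 at 14 DPI, and 60, 42, and 52 at 42 DPI. The mean was 27.7 ± 7.64 (SD, n = 3) in sham and 51.3 ± 9.02 (SD, n = 3) at 42 DPI, a ratio of 1.86 beside a ratio of 1.99 for all miRNAs. All arrays of 14 and of 42 DPI lay above all sham arrays in this count, while the groups 3 DPI and sham, and 42 and 14 DPI, overlapped. In the exact permutation test, two-sided, the p-value was 0.1 for 14 and for 42 DPI against sham, the smallest that 3 arrays against 3 can give (0.2 after adjustment over 4 comparisons). It was 0.2 at 3 DPI (adjusted 0.267) and 0.4 between 42 and 14 DPI (adjusted 0.4).

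The share of the members in the signal of the array was lower at 42 DPI than on any sham array. The members held 7.01, 3.83, and 3.26% of the summed intensity of all miRNAs on the sham arrays. At 3 DPI the shares were 4.34, 3.21, and 7.67%, and at 14 DPI they were 4.94, 1.63, and 1.46%. At 42 DPI they were 1.27, 1.55, and 1.28%, below every sham and every 3 DPI array. The groups of 3 and 14 DPI overlapped with sham, with exact permutation p-values of 0.7 and 0.3 (adjusted 0.7 and 0.4). The mean was 4.70 ± 2.02% (SD, n = 3) in sham and 1.37 ± 0.161% (SD, n = 3) at 42 DPI, 0.291 of the sham mean, and the exact permutation p was 0.1 (adjusted 0.4), again the smallest possible. The 3 brightest members, miR-7042-5p, miR-7047-5p, and miR-7005-5p, made up 55.2 to 61.8% of the members' intensity on the sham arrays and 40.5 to 45.6% at 42 DPI. Without them the share was 1.93 ± 0.653% (SD, n = 3) in sham and 0.775 ± 0.0639% (SD, n = 3) at 42 DPI, still with no overlap between the groups. The share followed the brightness of the array, also within 14 DPI. The 75th percentile before scaling was 285, 217, and 348 in sham and 401, 619, and 451 at 3 DPI. It was 588, 1173, and 1116 at 14 DPI and 2936, 1385, and 1858 at 42 DPI. Arrays at 619 or below held shares of 3.21% or more, and those at 1116 or above 1.63% or less. The part of brightness in the share was not tested.

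**Figure D1:**
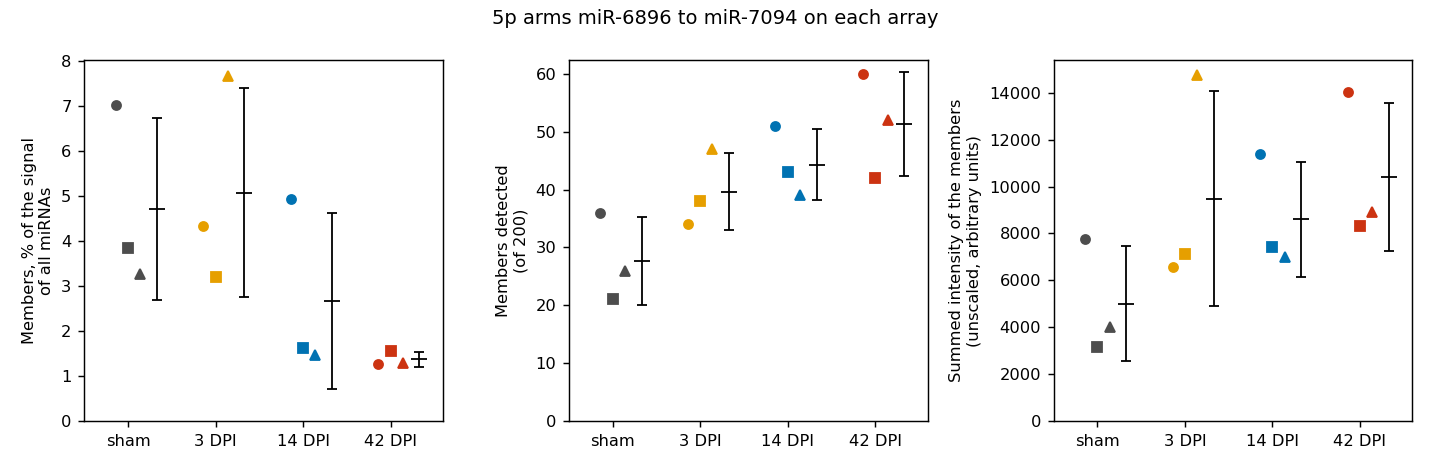
Each point is 1 array (circle, square, and triangle for replicates 1, 2, and 3), and the bars give the mean ± SD of the 3 arrays of a group; the panels show the members' percent of the intensity of all miRNAs, the number of the 200 members detected, and their summed unscaled intensity. At 42 DPI the share lay between 1.27 and 1.55%, while the number detected and the summed intensity lay above all sham arrays.

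The summed intensity of the members before any scaling was not lower at 42 DPI. It was 7784, 3171, and 4026 on the sham arrays and 14027, 8309, and 8904 at 42 DPI, with all 42 DPI arrays above all sham arrays and a ratio of means of 2.09 (exact permutation p = 0.1, adjusted 0.4). A fall of a member below is therefore a fall relative to the other miRNAs of the array. In bulk samples, fewer vesicles that carry a miRNA and fewer copies per vesicle cannot be told apart.

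Of the 200 members, 42 passed the filter, detection on all arrays of at least 1 group, among 486 miRNAs tested. All 42 passed through the 42 DPI group, and 21, 31, and 37 were also detected on all arrays of sham, 3, and 14 DPI. The 158 others stay untested, and all counts of calls below concern the 42.

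At 3 DPI the members lay close to sham. With limma and an adjusted p under 0.05, 0 of the 42 were called against sham, beside 0% of all 486 miRNAs, and at an unadjusted p under 0.05 there were also 0, beside 2.26% of all. The methods' t-test, which takes each miRNA alone and was adjusted here over all miRNAs like limma, called 0 as well. The study's own array selection also asked for a fold change, which was not applied here. Their median log2 change was 0.12, with 18 of 42 below sham, and over all miRNAs tested the median was 0.00. No member had all 3 DPI arrays below all sham arrays, beside 1.44% of all miRNAs. The 3 DPI group was spread by 1 array: 41 of the 42 tested members had their highest 3 DPI value on replicate 3, and replicate 1, on slide 1, lay between the other replicates for 32 of 42.

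At 14 DPI the members were lower than sham on the median but 0 of 42 were called by limma, beside 3.7% of all miRNAs. At an unadjusted p under 0.05 there were 3 members, all lower, beside 21.6% of all miRNAs. The methods' t-test called 0. The median log2 change was -0.42, with 32 of 42 below sham, beside 0.00 over all tested. All 14 DPI arrays lay below all sham arrays for 2 members, beside 9.26% of all miRNAs. Replicate 1 stood apart in this group, since 41 of the 42 members had their highest 14 DPI value on it. It was also the dimmest array of the group, with a 75th percentile before scaling of 588 against 1173 and 1116. Without that array limma called 14 of 42 members, all lower, beside 83 lower and 79 higher of all 491 miRNAs then tested, and this is the array whose share of signal was 4.94% against 1.63 and 1.46%.

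At 42 DPI 12 of the 42 tested members were lower than sham by limma and 0 were higher. The 12 are 28.6% of the tested members, beside 20.6% of all 486 miRNAs called lower and 34.2% called in either direction. At an unadjusted p under 0.05 there were 21 members, beside 47.5% of all. The methods' t-test, adjusted over all miRNAs, called 20, beside 212 of all 486. The median log2 change was -1.24 over the 42 members and -0.09 over all tested, 41 of the 42 had a negative log2 change, and 38 lay below the median of all. All 42 DPI arrays lay below all sham arrays for 28 of the 42 members, beside 35.6% of all miRNAs, and for each of the 12 that were called. Only 21 of the 42 were detected on all sham arrays, so that part of the sham values in these counts did not stand well above background. The lowest detected log2 scaled signal was -4.64 to -3.66 on the sham arrays and -7.77 to -6.39 at 42 DPI. The mean unscaled intensity of each of the 12 was higher at 42 DPI than in sham. Of the 21 members detected on all 12 arrays, 9 were among the 12. With single arrays left out the count ran from 1 of 42 without replicate 1 of 42 DPI, beside 51 of all 491 miRNAs tested, to 24 of 42 without replicate 1 of 14 DPI, beside 245 of 491.

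**Figure D2:**
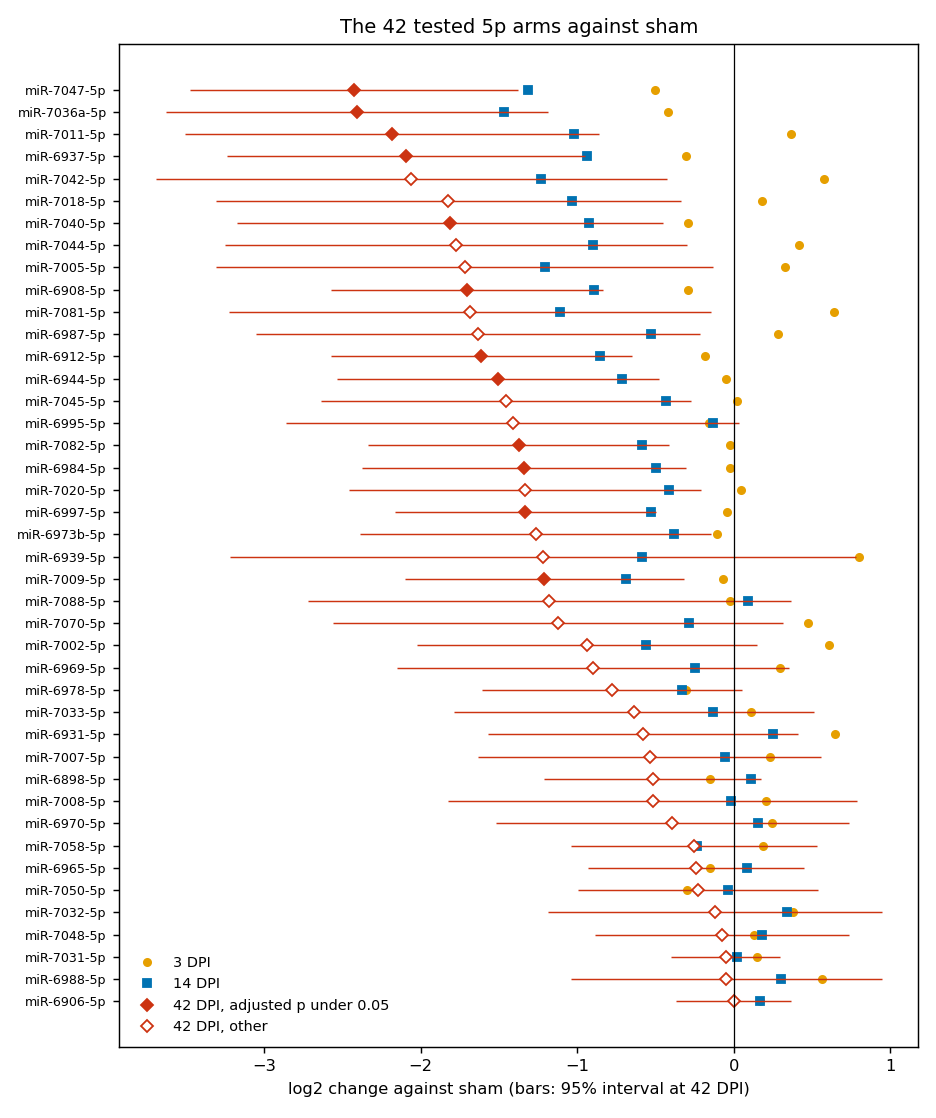
Log2 changes against sham from the limma fit for the 42 tested members, ordered by the change at 42 DPI; circles are 3 DPI, squares 14 DPI, and diamonds 42 DPI (filled where the adjusted p was under 0.05, with bars for the 95% interval). The circles lie on both sides of 0, the squares mostly below it, and the diamonds between -2.43 and 0.00.

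miR-7047-5p fell most. Its log2 scaled signal was 2.11, 1.89, and 1.64 on the sham arrays, 1.57, 0.61, and 1.96 at 3 DPI, 1.57, 0.14, and -0.02 at 14 DPI, and -0.82, -0.23, and -0.59 at 42 DPI. The 42 DPI arrays lay below the 9 others. The change against sham was -2.43 (SE 0.46, limma, adjusted p = 0.00997), 5.37-fold lower, after -0.50 (adjusted p = 1) at 3 DPI and -1.31 (adjusted p = 0.143) at 14 DPI. Its intensity before scaling was 1038 ± 215 (SD, n = 3) in sham and 1359 ± 267 (SD, n = 3) at 42 DPI, 1.31-fold higher in the fit without scaling (limma, adjusted p = 0.286), while the 75th percentile of the array was 7.27-fold higher. miR-6965-5p, with the same seed, was at -3.15, -3.77, and -3.81 in sham, where it was detected on 1 of 3 arrays, and at -3.88, -3.84, and -3.73 at 42 DPI. Its groups overlapped, and the change of -0.24 (95% interval -0.93 to 0.45) did not pass the test.

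miR-7036a-5p, from within Srrt, had log2 scaled signals of -1.24, -2.09, and -2.33 in sham, -2.02, -3.26, and -1.65 at 3 DPI, -2.30, -3.86, and -3.90 at 14 DPI, and -4.42, -4.18, and -4.29 at 42 DPI. Its 42 DPI arrays were the lowest of the 12 and close together (SD 0.12), while replicate 1 of sham and of 14 DPI stood above the others of its group. The change at 42 DPI was -2.41 (SE 0.54, limma, adjusted p = 0.0141). miR-7011-5p, from within Sema4a, showed -1.20, -2.11, and -2.33 in sham, -1.96, -1.92, and -0.66 at 3 DPI, -1.59, -3.45, and -3.66 at 14 DPI, and -4.09, -3.94, and -4.16 at 42 DPI. It was thus higher on replicate 3 of 3 DPI than on any other array and lowest on the 42 DPI arrays, with a change of -2.18 (SE 0.58, limma, adjusted p = 0.0218). miR-6937-5p, from within Adi1, went from 0.30, 0.04, and -0.21 in sham over -0.20, -1.0, and 0.43 at 3 DPI and 0.25, -1.34, and -1.58 at 14 DPI to -2.31, -1.77, and -2.07 at 42 DPI. Of its 2 probes, 1 carried the change and the other was at the floor in both groups, and the change of the miRNA was -2.09 (SE 0.50, limma, adjusted p = 0.0159).

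The other named falls began from dimmer signals. miR-6908-5p, from within Pdxk, had log2 scaled signals of -1.98, -2.39, and -2.77 in sham and -4.27, -3.85, and -4.14 at 42 DPI, with 3 DPI at -2.73, -3.30, and -1.98 and 14 DPI at -2.63, -3.65, and -3.53. Its groups sham and 42 DPI were more than 1 unit apart, with a change of -1.70 (SE 0.38, limma, adjusted p = 0.0141). miR-6912-5p, from within Scamp4, was at -2.12, -2.46, and -2.90 in sham and -4.39, -3.91, and -4.01 at 42 DPI, with -2.35, -3.42, and -2.27 at 3 DPI and -2.51, -3.88, and -3.65 at 14 DPI. The change was -1.61 (SE 0.42, limma, adjusted p = 0.0216), and both of its probes moved in the same direction. miR-6944-5p, from within the drebrin gene Dbn1, was detected on 2 of 3 sham arrays and on all others. Its signals were -2.73, -3.30, and -3.40 in sham and -4.67, -4.58, and -4.69 at 42 DPI, with a change of -1.51 (SE 0.45, limma, adjusted p = 0.0341). miR-7040-5p was detected on 2 of 3 arrays of sham and of 3 DPI and on all arrays of 14 and 42 DPI, and it is the member called whose 42 DPI arrays were all at the floor. Its sham signals were -2.99, -3.20, and -3.55, and the change of -1.81 (SE 0.60, limma, adjusted p = 0.0466) is set by the floor. The 4 other members called had changes between -1.37 and -1.21.

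**Figure D3:**
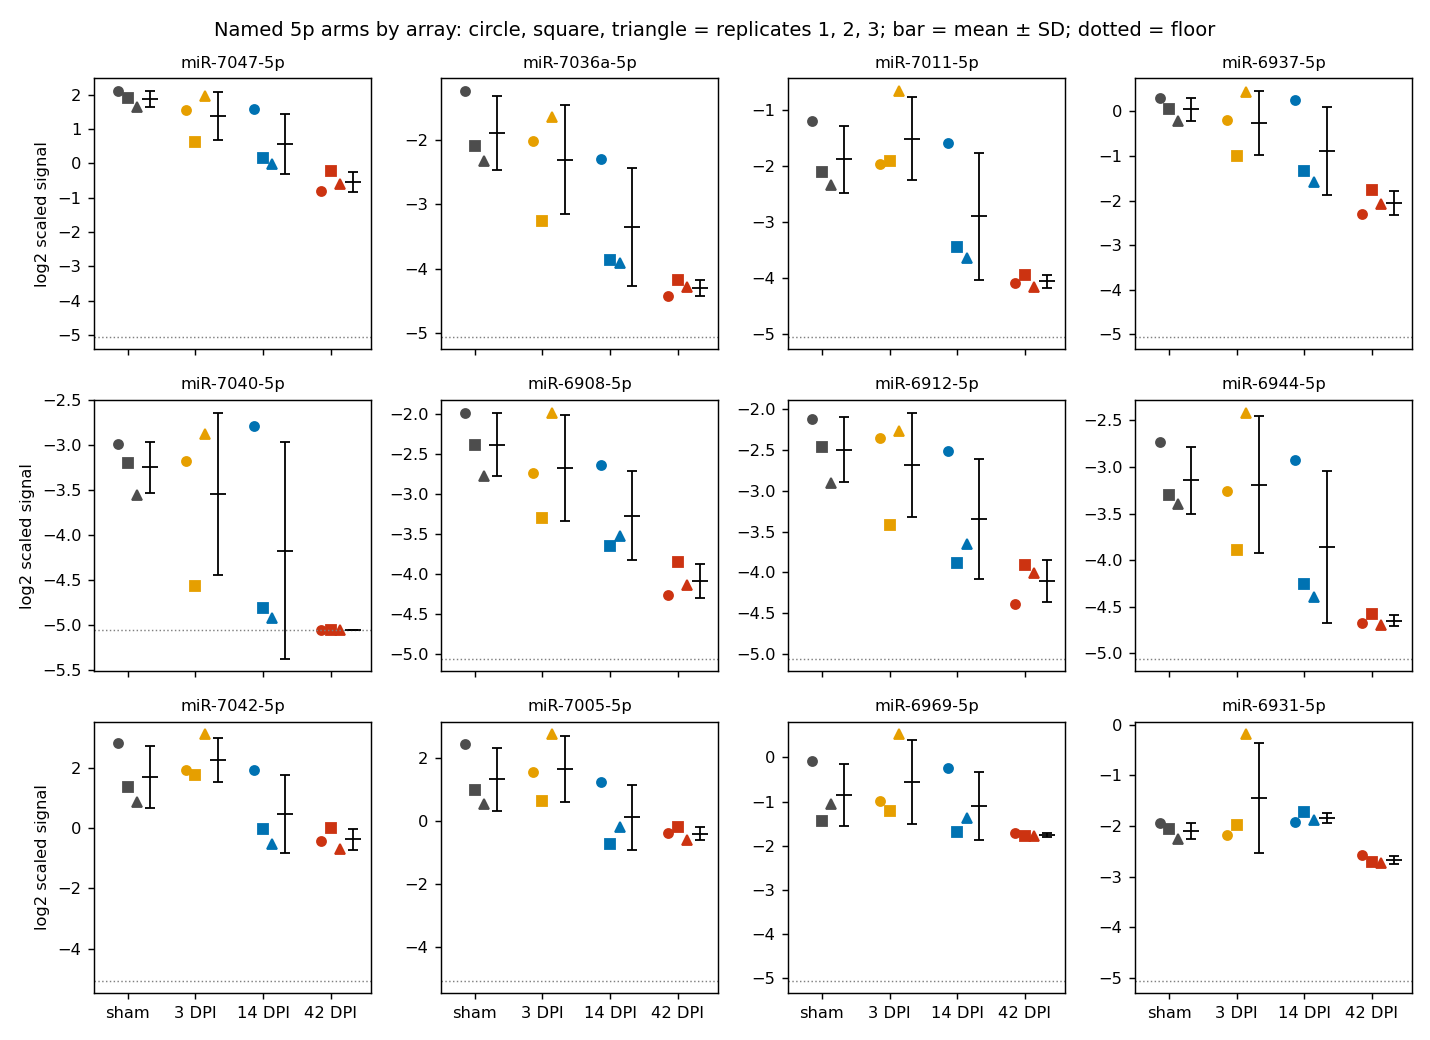
Log2 scaled signal of the 12 named members on each array, by group, with circle, square, and triangle for replicates 1, 2, and 3, bars for mean ± SD, and a dotted line at the floor of -5.06; each panel has its own axis. In the 8 members of the upper 2 rows, which were called lower, all 42 DPI arrays lie below all sham arrays, and in most panels replicate 1 of sham, replicate 3 of 3 DPI, and replicate 1 of 14 DPI lie highest in their group.

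Signal does not give the relative amount of different miRNAs on an array, because each probe binds with its own strength, so that the members with the highest mean signal are named only as those measured farthest above background. Of the 6, miR-7047-5p and miR-6937-5p were called above. miR-7042-5p had log2 scaled signals of 2.84, 1.37, and 0.88 in sham, 1.93, 1.77, and 3.11 at 3 DPI, 1.93, -0.01, and -0.52 at 14 DPI, and -0.43, 0.02, and -0.68 at 42 DPI. All 42 DPI arrays lay below all sham arrays, but the sham arrays differed by nearly 2 units, and the change of -2.06 (95% interval -3.69 to -0.43) did not pass the test (limma, adjusted p = 0.0538). miR-7005-5p, from within Lama5, was at 2.44, 0.99, and 0.52 in sham, 1.54, 0.65, and 2.75 at 3 DPI, 1.25, -0.72, and -0.19 at 14 DPI, and -0.39, -0.20, and -0.61 at 42 DPI. Its sham replicate 1 stood as far above the others as that of miR-7042-5p, and its change of -1.72 (95% interval -3.31 to -0.13) did not pass either (limma, adjusted p = 0.0828).

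miR-6969-5p, from within Clps, was at -0.07, -1.45, and -1.06 in sham and -1.71, -1.78, and -1.78 at 42 DPI, a change of -0.90 (95% interval -2.15 to 0.35) that did not pass the test. miR-6931-5p, from within Dcakd and the most G-rich of the sequences above at 66.7% G, did not follow the others at 14 DPI. Its signals were -1.95, -2.06, and -2.26 in sham, -2.17, -1.98, and -0.19 at 3 DPI, -1.93, -1.72, and -1.87 at 14 DPI, and -2.57, -2.72, and -2.73 at 42 DPI. All 14 DPI arrays lay just above all sham arrays and all 42 DPI arrays below them, but neither change passed the test (0.25, limma, adjusted p = 0.828, and -0.58, adjusted p = 0.32).

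Between 42 and 14 DPI, which share slide 2, all 42 tested members had a negative log2 difference with a median of -0.77, beside -0.11 over all miRNAs. Limma called 0 of the 42, beside 0% of all miRNAs, and at an unadjusted p under 0.05 there were 2 members, miR-7047-5p and miR-6937-5p, beside 10.9% of all. The methods' t-test called 0. The differences were -1.11 (95% interval -2.16 to -0.06, limma, adjusted p = 0.424) for miR-7047-5p and -1.16 (95% interval -2.30 to -0.02, limma, adjusted p = 0.441) for miR-6937-5p. A fit on slide 2 alone keeps all arrays of both groups, so that its median is the same by design and only the estimate of the spread changes. It also called 0 members, beside 0 of all 486 miRNAs.

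The direction of these changes rests on the scaling between arrays. Without scaling, all 42 tested members had a positive log2 change at 42 DPI, 27 were called higher and 0 lower by limma, and the median was 1.20, while the median over all 486 miRNAs was 1.76 and 382 were called higher. With this setting 35 of the 42 members still lay below the median of all miRNAs. The members' median minus that of all miRNAs was -1.15 with the scaling used here, -0.56 without scaling, -0.80 with the 75th percentile over all miRNAs, -0.73 after quantile normalization, and -1.39 in the authors' table of log2 values. It was -0.24 after normexp background correction, which models the spread of the background. This setting also added 50 to every spot before probes were summed, and it used no floor. Here 388 of all 486 miRNAs and all 42 members were called lower. The part of the added value in these calls was not tested.

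**Figure D4:**
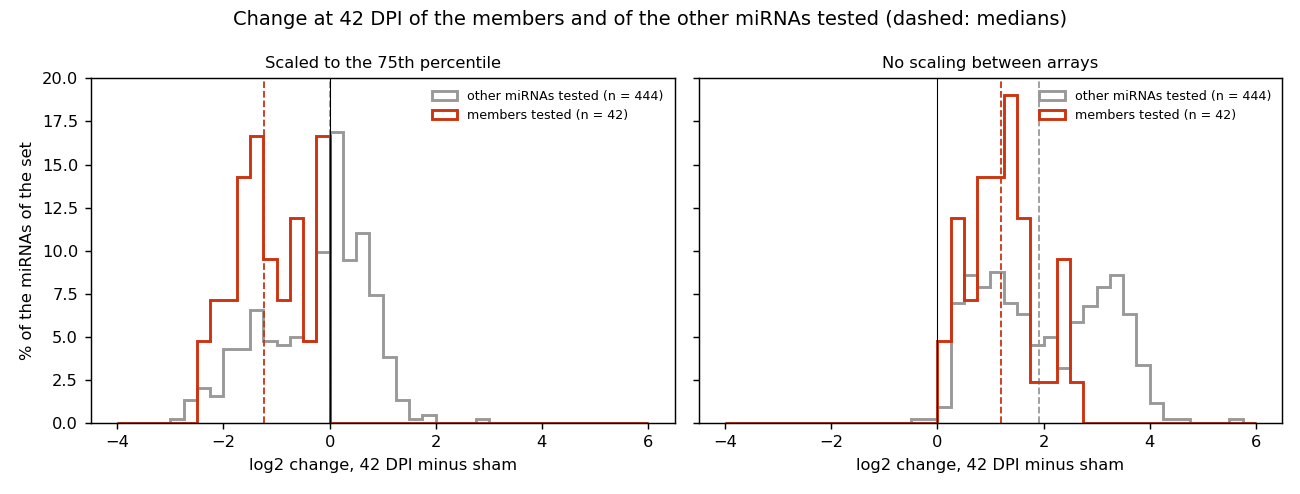
Distribution of the log2 change at 42 DPI against sham for the 42 tested members and the 444 other miRNAs tested, as a percent of each set in bins of 0.25, with scaling to the 75th percentile and without scaling; dashed lines are medians. The members' median is -1.24 with scaling and 1.20 without it, and in both panels it lies to the left of the others, at 0.00 and 1.92.

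When slide entered as a block, a fit that depends on 1 array (3 DPI replicate 1), the median change of the members at 42 DPI was -1.55, but limma called 0, with 6 at an unadjusted p under 0.05. For miR-7047-5p the change was then -2.14 (adjusted p = 0.229). That single 3 DPI array lay within the range of the sham arrays for 40 of the 42 members. The part of the slide in the fall at 42 DPI cannot be told apart from that of the injury.

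Few 3p arms of the block were detected. Of 199 on the array, 16 were detected on at least 1 array and 2 on all 12, miR-6976-3p and miR-7022-3p. Of the 21 members detected on all 12 arrays, 20 have a 3p arm on the array, and it was detected on at least 1 array for 1 of them, miR-7047-3p. The 11 tested 3p arms had a median log2 change of -1.27 at 42 DPI, and 8 were called lower, beside 20.6% of all 486 miRNAs. At 14 DPI their median was -0.98 and 3 were called lower, beside 2.06% of all. When the fit blocked on replicate numbers, 0 of all 486 miRNAs were called lower at 14 DPI, so that these 3 calls were lost. miR-7022-3p went from -2.81 ± 0.31 (SD, n = 3) in sham to -4.76 ± 0.32 (SD, n = 3) at 42 DPI. miR-7047-3p was near the floor in both groups and had a change of -0.13 (limma, adjusted p = 0.754).

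Of 6 arms of known mirtrons, miR-877, miR-1224, and miR-702, 3 were tested. All 3 were called lower at 42 DPI, beside 20.6% of all 486 miRNAs. miR-1224-5p went from 1.09 ± 0.38 (SD, n = 3) in sham to -1.05 ± 0.21 (SD, n = 3), a change of -2.14 (limma, adjusted p = 0.0104). miR-702-3p changed by -1.76 (limma, adjusted p = 0.00927) and miR-877-3p by -1.43 (limma, adjusted p = 0.0208). The 170 tested 5p arms outside the block had a median log2 change of 0.09 at 42 DPI, and 24 of them were called lower and 26 higher. With slide as a block 0 of all 486 miRNAs were called, so that the calls of the 3p arms and known mirtrons at 42 DPI were lost as well. Differences between these lists were not tested.

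G content differed between the detection classes of the members. The median G content was 42.9% in the 118 members with a sequence detected on no array, 47.7% in the 38 detected on 1 to 11 arrays, and 52.1% in the 20 detected on all 12. In the other 5p arms it was 27.3, 30.4, and 28.6% in the same classes. GGGG was held by 21 of the 38 tested members (55.3%) and 46 of the 138 untested ones (33.3%). Among the tested members it was held by 4 of the 11 called lower at 42 DPI that have a sequence and by 17 of the 27 not called. This is a description across miRNAs, whose sequences are related, and the part of base composition in the signal of a probe was not tested.

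**Figure D5:**
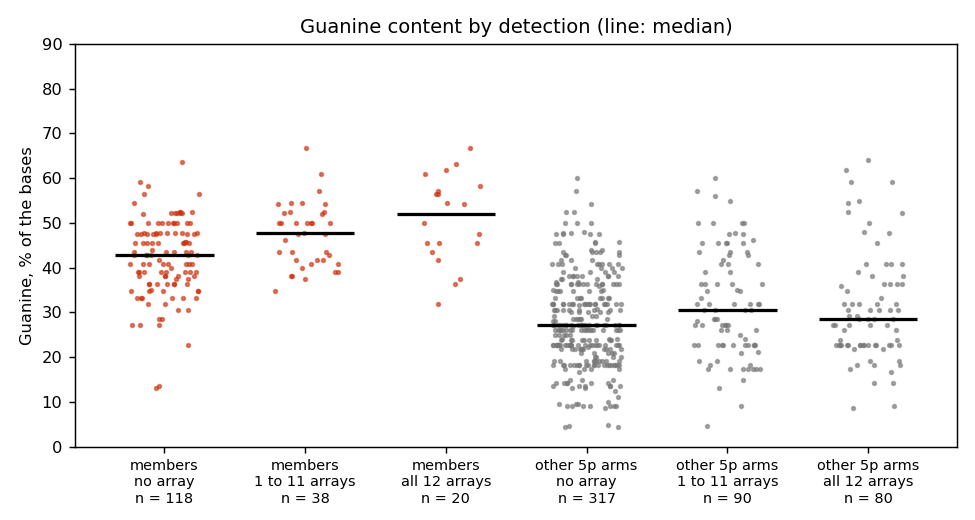
Guanine content of each mature 5p arm, in percent of its bases, for members and for the other 5p arms on the array, by the number of arrays on which they were detected; lines are medians. The members' medians are 42.9, 47.7, and 52.1%, and those of the other 5p arms 27.3, 30.4, and 28.6%.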

How the data were processed

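Exosome RNA was measured on Agilent mouse miRNA arrays of 1 color, 12 in all. For each array the authors deposited the output of the scanner software (Agilent Feature Extraction 10.7.1.1, per the submitters' processing notes). The intensity of each spot in these files is on a linear scale, corrected for background by the authors' software and not normalized across arrays, as deposited. A second table that the authors deposited holds log2 values, with scaling and centering not stated and a median of -3.32, used here as an alternative with higher values for brighter spots.

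Spots that are controls or carry an outlier mark were dropped. The mean over its spots was taken for each probe, and a miRNA is the sum of its probes (2 for 190 members, 3 for 10). Scaling, floor, and detection are given in the text above. The log2 values of 486 miRNAs were fitted with limma 3.58.1 in R 4.3.3 over the 12 arrays, with no covariate, and two-sided p-values were adjusted over all 486 by Benjamini-Hochberg. The fit was also run on simulated data, in which miRNAs and arrays varied independently. Shifts shared by the miRNAs of an array or slide were not simulated, so that run cannot show how the fit handles them. Values of 1 per array were compared with exact permutation tests (Python 3.11.15, SciPy 1.17.1, NumPy 2.4.6, pandas 2.3.3), and figures were drawn with Matplotlib 3.10.9. The number of arrays limits the precision.

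The members and lists were chosen with earlier results of these data known. Named members are at most the 8 largest rises and 8 largest falls per comparison among those called and detected in both groups, the 6 with the highest mean, and, with their values, any detected on all 12 arrays. Sequences and gene bounds come from RefSeq (GRCm38.p6). The position of miR-7047-5p is not reported here. Same-numbered arrays of sham and 14 DPI moved in the same direction around their group means (correlations across the 486 miRNAs of 0.83, 0.44, and 0.75), a pairing seen in the data and not stated in the labels. Those of sham with 3 DPI (-0.44, 0.57, and -0.73), of sham with 42 DPI (-0.42, -0.07, and 0.27), and of 14 with 42 DPI (-0.62, -0.64, and 0.21) did not. Alternatives were other signals, background correction, scaling, floors, filters, detection, blocks, a t-test as in the study's methods, the authors' log2 table, and leaving out single arrays. Chosen after seeing the data were the comparison of 42 with 3 DPI, the members left out of the percentile, slide 2 alone, and a paired fit of sham and 14 DPI.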

Additional observations from a re-analysis of the deposited data

Results flagged for a closer look

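For 18 of the 42 tested members, limma called a difference between 42 DPI and 3 DPI, beside 38.3% of all 486 miRNAs called and 24.1% called lower. Sham means do not enter this difference, but the sham arrays enter the scaling, the filter, and the shared estimate of the spread. All 18 were lower at 42 DPI, and the median log2 difference of the members was -1.30, beside -0.09 over all miRNAs. Among the named members the largest were miR-7042-5p (-2.64, limma, adjusted p = 0.0284), miR-7011-5p (-2.55, adjusted p = 0.0204), and miR-7005-5p (-2.05, adjusted p = 0.0472). For miR-7042-5p and miR-7005-5p the change against sham did not itself pass the test. This comparison was chosen after seeing the data. The count rested on single arrays, as did that of all miRNAs. Without each 42 DPI array in turn 0 members were called (0 of 491, 20 of 539, and 0 of 486 miRNAs without replicates 1, 2, and 3). Without replicate 3 of 3 DPI 2 members were called (38 of 488 miRNAs), and without replicate 1 of 3 DPI 3 were called (93 of 492 miRNAs). Without sham replicates 1, 2, and 3 the count was 19, 9, and 15 (188 of 486, 136 of 486, and 167 of 487 miRNAs). Within slide 2 the median difference was -1.39 with 0 called by limma and 16 at an unadjusted p under 0.05, and without scaling 8 members were called and all were higher at 42 DPI, beside 293 higher and 2 lower of all 486 miRNAs.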

How the results depend on the processing

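At 42 DPI against sham limma called 12 members (0 higher). With slide as a block 0 members were called (0 of all 486 miRNAs), and without the filter 0 (18 of 1881). The brightest probe gave 6 (149 of 486), quantile normalization 7 (172), and double the floor 7 (88). The methods' t-test gave 20 (212), 0.5 times the floor 20 (215), and only the 2 groups 24 (262). Normexp gave 42 (429), and in all these settings the members called were lower. The deposited table gave 20, of which 16 were lower, beside 143 higher and 106 lower of all 486. No scaling gave 27, all higher, beside 382 higher of all. The 75th percentile over all miRNAs gave 10, of which 2 were higher, beside 132 higher and 71 lower of all 486 miRNAs (66 and 100 with the scaling used). Leaving out 1 array gave 1 to 24. Without replicates 1, 2, and 3 of 42 DPI the count was 1, 4, and 3 (51 of 491, 95 of 539, and 81 of 486 miRNAs). It was 3 and 4 without sham replicates 1 and 2 (70 and 88 of 486 miRNAs). It was 8 without 3 DPI replicate 1 (143 of 492) and 24 without 14 DPI replicate 1 (245 of 491). At 3 DPI 0 members were called under all alternatives except the deposited table (4). At 14 DPI (0 called) the total gene signal gave 1, normexp 34, no scaling 21, the authors' log2 values 8, and arrays left out 0 to 14. Between 42 and 14 DPI (0 called) normexp gave 37, the authors' log2 values 3, and arrays left out 0 to 1. Between 42 and 3 DPI (18 called, beside 186 of all 486) the replicate block and the t-test gave 10 each (137 and 165 of all). Slide as a block gave 3 (92), and slide 2 alone and no filter gave 0 (0 of all). The brightest probe gave 8 (145), double the floor 2 (41), and normexp 42 (414), all lower. Quantile normalization gave 9, of which 1 was higher (172), and no scaling 8, all higher (295). Arrays left out gave 0 to 26 (26 beside 249 of 491).

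The members' median change at 42 DPI, -1.24, became -1.91 under normexp, -0.51 with the percentile over all miRNAs, 0.00 without the filter, and 1.20 without scaling, and ran from -1.46 to -0.96 with arrays left out. Without scaling it was 0.96 at 14 DPI and 0.27 between 42 and 14 DPI, where it was 0.00 without the filter. With the scaling used here and arrays left out, it ran from -0.92 to -0.11 at 14 DPI and from -0.98 to -0.21 between 42 and 14 DPI. At 3 DPI it ran from -0.27 to 0.34 with arrays left out. The 8 named falls at 42 DPI turned without scaling, to 0.39 for miR-7047-5p, 0.41 for miR-7036a-5p, 0.63 for miR-7011-5p, 0.73 for miR-6937-5p, 0.72 for miR-7040-5p, 1.11 for miR-6908-5p, 1.21 for miR-6912-5p, and 1.31 for miR-6944-5p, while no other alternative turned them. Other causes of these moves were not tested.

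In a fit that blocks on the replicate number (replicate block), limma called 10 members at 42 DPI, beside 140 of all 486 miRNAs. It called 0 members at 3 and 14 DPI (0 and 4 of all) and 0 between 42 and 14 DPI (0 of all). For sham and 14 DPI, same-numbered arrays moved together in these data, though the labels state no pairing. A fit of these 2 groups with the block called 0 members, with 9 at an unadjusted p under 0.05, and changed no call. For the share of signal and the number detected, the differences between groups moved by less than the spread between arrays, but the levels did not: under normexp the share was 7.96% in sham and 3.43% at 42 DPI, and with the software's detection call 36.0 and 64.3 members were detected. Dim members are limited by the floor, at which 10 of 42 lay on all 42 DPI arrays.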
